A study of Mus musculus with 272 samples.

Results

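Rab genes encode small GTPases that mark and move the membranes of the cell. The Rab genes described here are the 52 symbols of the deposited expression table that consist of Rab, a number and at most a letter and a digit, among 15854 symbols in all. Effectors, exchange factors and other genes with Rab in a longer name were not members. The table covers mouse oocytes and preimplantation embryos at 8 stages: germinal vesicle (GV) oocytes, metaphase II (MII) oocytes, zygotes, 2-cell, 4-cell and 8-cell embryos, morulae and blastocysts. At each stage, 4 transcriptomes were made from poly(A) RNA, each from a pool of 20 oocytes or embryos. In addition, lysates of about 100 oocytes or embryos were separated on 3 sucrose gradients per stage, each cut into 10 fractions that were sequenced one by one. All gradient lysates were made with cycloheximide, which holds ribosomes on the mRNA. The labels name no genetic change or treatment for any group, and strain and age are not given in the sources used here. The series' design text places the transcriptome pools of a stage in the same batch as its gradients, so the p-values below measure the spread between pools or gradients, part of which may be technical.

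A Rab protein is active at the membrane when it holds GTP and is inactive in the cytosol when it holds GDP. Exchange factors (GEFs) load GTP, GTPase-activating proteins (GAPs) promote its hydrolysis, GDP dissociation inhibitors (GDIs) extract the inactive protein, and effectors such as tethers and motors read the active form. Prenylation by Rab geranylgeranyl transferase and its escort proteins anchors Rabs in the membrane. In the oocyte, Rab proteins serve cortical granule exocytosis and vesicle movement along actin. In the blastocyst they serve the polarised traffic of the outer epithelium.

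The table gives CPM, the reads of a gene per 1000000 reads of its library, so each value is a share of a library, and more or less RNA per embryo cannot be told apart from a change in the other transcripts. Values above 0 were whole numbers of reads once divided by the value of 1 read (100% of those checked, within 0.05 reads). The highest values of a library were not checked. The depth was 11.8 to 25.2 M reads (M for 1000000) in the transcriptomes and 0.0105 to 44.0 M reads (median 19.0 M) in the fractions. Of the 240 fraction libraries, 14 held under 1 M reads. All 14 were fraction 1, the top of the gradient if fractions are numbered from light to heavy, as taken here because the labels give no direction. The stage names were checked by markers: 5 oocyte markers (Zp2, Zp3, Gdf9, Bmp15 and Mos) summed to 16500 to 19200 CPM in GV and 6.27 to 11 CPM in blastocyst transcriptomes, Zscan4c and Zscan4d to 1400 to 1980 CPM in 2-cell transcriptomes, and 7 blastocyst markers to 2480 to 3030 CPM in blastocysts. Of 12 cumulus and granulosa cell markers, 4 were in the table (Fshr, Inha, Cyp19a1 and Col4a1). Their sum was 39.6 to 71.1 CPM from GV to MII, 49.2 to 60.8 in zygotes, 6.33 to 14.0 in 2-cell embryos, at most 4.18 from the 4-cell stage to the morula and 17.9 to 25.3 in blastocysts. Their part in the Rab results was not tested. The 1 sperm marker in the table, Prm2, reached 19.3 CPM in the transcriptomes (GV oocytes) and 393 CPM in single fractions (2-cell embryos, with medians over fractions of 0 to 14.7 CPM by stage). Hba-a1 and Hba-a2, from the blood list, were at 0 in the transcriptomes up to the zygote and summed to at most 159 CPM in the transcriptomes and 415 CPM in the fractions, both in 4-cell embryos.

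The promoters of 44 of the 52 members were found in the RefSeq set for GRCm38.p6. The 250 bases before the annotated start are shown for 5 genes on which the results below turn: Rab20 and Rab5a, which rose at the 2-cell stage and again at the 4-cell stage, the paralogs Rab8a and Rab8b, whose ratio differed most of the pairs between GV oocytes and blastocysts, and Rab17, the blastocyst gene of epithelial traffic. Capitals mark 4 motifs searched on both strands: the E-box, spelled CACGTG, the GC box, spelled GGGCGG, the CCAAT box, spelled as in its name, and the TATA box, spelled TATAAA. A match describes the letters and not a bound site.
Rab20, chr8:11478641-11478890 (- strand, GRCm38.p6): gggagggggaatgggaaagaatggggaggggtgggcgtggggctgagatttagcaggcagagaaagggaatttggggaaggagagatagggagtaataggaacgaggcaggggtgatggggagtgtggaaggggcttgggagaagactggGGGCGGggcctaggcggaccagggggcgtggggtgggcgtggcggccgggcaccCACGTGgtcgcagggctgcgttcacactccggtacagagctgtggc
Rab5a, chr17:53478984-53479233 (+ strand, GRCm38.p6): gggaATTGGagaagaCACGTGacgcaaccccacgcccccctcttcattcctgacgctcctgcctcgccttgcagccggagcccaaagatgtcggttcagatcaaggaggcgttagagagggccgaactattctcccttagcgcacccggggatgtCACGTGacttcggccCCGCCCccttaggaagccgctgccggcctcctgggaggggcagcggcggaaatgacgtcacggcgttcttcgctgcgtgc
Rab8a, chr8:72160950-72161199 (+ strand, GRCm38.p6): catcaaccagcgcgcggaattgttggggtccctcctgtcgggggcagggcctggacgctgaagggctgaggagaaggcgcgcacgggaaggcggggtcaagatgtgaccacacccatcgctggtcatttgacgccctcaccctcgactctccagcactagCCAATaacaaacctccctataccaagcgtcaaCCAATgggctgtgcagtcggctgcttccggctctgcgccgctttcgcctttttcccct
Rab8b, chr9:66919706-66919955 (- strand, GRCm38.p6): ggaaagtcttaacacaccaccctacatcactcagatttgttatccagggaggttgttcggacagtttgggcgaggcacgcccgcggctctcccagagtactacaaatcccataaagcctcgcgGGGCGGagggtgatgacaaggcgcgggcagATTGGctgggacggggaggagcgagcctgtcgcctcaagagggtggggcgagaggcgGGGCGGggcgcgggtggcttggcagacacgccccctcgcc
Rab17, chr1:90967668-90967917 (- strand, GRCm38.p6): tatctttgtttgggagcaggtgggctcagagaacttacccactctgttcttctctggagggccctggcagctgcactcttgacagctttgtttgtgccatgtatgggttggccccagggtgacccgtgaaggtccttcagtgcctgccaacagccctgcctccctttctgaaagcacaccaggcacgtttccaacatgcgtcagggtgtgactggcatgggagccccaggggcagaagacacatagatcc
The E-box occurred in 4 of the 44 member promoters (9.09%: Rab20, Rab21, Rab23 and Rab5a), in 8.2% of the promoters of all genes of the table and in 6.05% of all 27025 promoters. The GC box occurred in 68.2% of member promoters, 55.2% of those of genes of the table and 32.9% of all. The CCAAT box occurred in 45.5% of member promoters, 37.0% of those of genes of the table and 34.5% of all. TATAAA occurred in 6.82%, 7.2% and 13.0%. In the window of Rab17 none of the 4 motifs was present. Among the 18 members with a promoter that rose from the zygote to the 2-cell stage, 3 held an E-box and 11 a GC box, and among the 14 that fell from the 2-cell to the 4-cell stage, 1 and 9 did.

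Summed over all 52 members, Rab transcripts made up 2385 ± 70.1 CPM (SD, n = 4) in GV oocytes, 2138 ± 26.2 in MII oocytes and 2493 ± 119 in zygotes. The sum was highest in 2-cell embryos at 3645 ± 112 CPM and lay at 2266 ± 138 at the 4-cell stage, 2088 ± 302 at the 8-cell stage, 2054 ± 53.2 in morulae and 2659 ± 203 in blastocysts. The 4 libraries of the 2-cell stage (3501 to 3763 CPM) did not overlap with those of any other stage, the next highest being a blastocyst library at 2890 CPM. Between 34 members (zygote) and 44 members (4-cell and blastocyst) had a mean of at least 1 CPM. By stage of the highest mean, 17 members were highest in blastocysts, 11 at the 2-cell stage, 9 at the 4-cell stage, 6 in GV oocytes, 5 at the 8-cell stage, 3 in zygotes, 1 in MII oocytes and 0 in morulae. Levels of different genes are comparable only per transcript length. Per kilobase of merged exons (GENCODE M21), Rab7 stood first in GV oocytes, MII oocytes, zygotes and 2-cell embryos (181, 122, 132 and 297 CPM per kb), Rab20 in 4-cell and 8-cell embryos (197 and 159) and Rab2a in morulae and blastocysts (133 and 300).

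**Figure D1:**
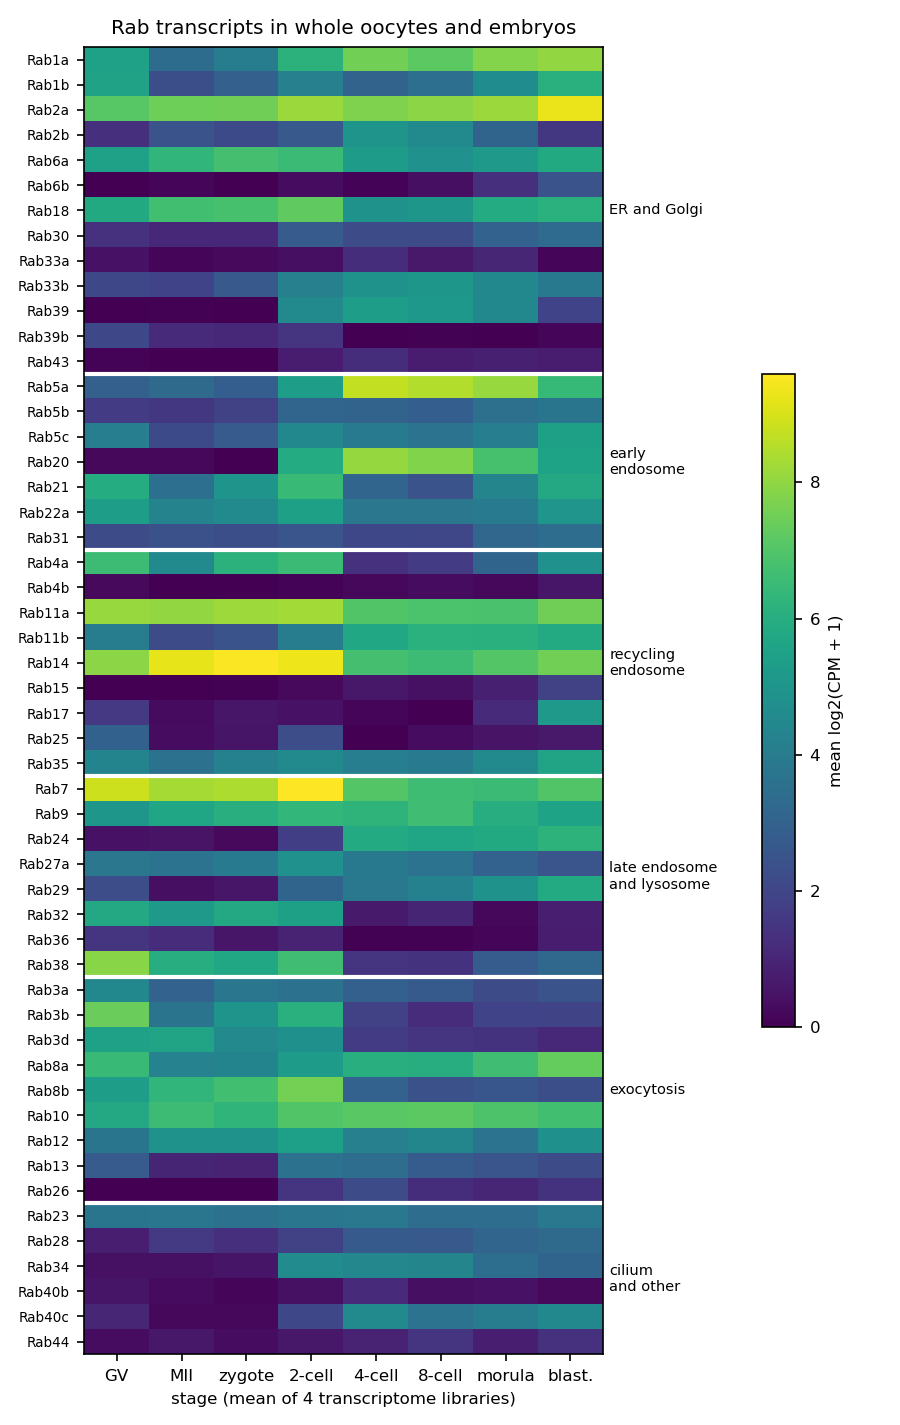
Heat map of the mean log2(CPM + 1) of 4 transcriptome libraries for each of the 52 Rab genes (rows, grouped by the membrane they serve) at 8 stages (columns). Rab20, Rab39 and Rab34 are dark up to the zygote and brighter from the 2-cell stage, and Rab39 darkens again in blastocysts. Rab32, Rab38 and Rab3b darken between the 2-cell and 4-cell stages.

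Transcriptomes of neighbouring stages were compared in one limma fit on log2(CPM + 1) over 14642 genes, with 51 members tested. Rab4b missed the filter, at a highest stage mean of 0.539 ± 0.33 CPM in blastocysts. A gene was called at a Benjamini-Hochberg adjusted p under 0.05 over all genes and an absolute log2 change of at least 1. Neighbouring comparisons share a stage's libraries and are not independent of each other. The transcriptomes were made from poly(A) RNA, so the values cover RNA with a poly(A) tail, and tail length was not measured. From GV to MII, 3 members rose (5.88%, against 9.11% of all genes tested) and 15 fell (29.4%, against 25.3%). From MII to the zygote, 3 rose (5.79% of all genes) and 1 fell (4.48%). From the zygote to the 2-cell stage, 20 rose (39.2%, against 25.2% of all genes) and 0 fell (8.71%). In that comparison the median change was 0.73 for the members and 0.37 for all genes. From the 2-cell to the 4-cell stage, 7 rose (13.7%, against 31.8%) and 17 fell (33.3%, against 32.9%). From the 4-cell to the 8-cell stage no member was called by limma (0.451% of all genes rose and 2.14% fell), while 13 members had an unadjusted p under 0.05 and edgeR also called 0. Leaving out replicate B gave 1 call there. From the 8-cell stage to the morula, 6 rose (8.18% of all genes) and 1 fell (3.7%). From the morula to the blastocyst, 11 rose (21.6%, against 18.8%) and 4 fell (7.84%, against 7.97%). Between the end points, 23 members were higher in blastocysts than in GV oocytes (45.1%, against 38.2%) and 11 lower (21.6%, against 30.9%). In this fit, the share of members lay furthest above that of all genes for rises at the 2-cell stage and furthest below it for rises from 2 to 4 cells. Whether the members differ from other genes there was not tested.

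Scaling moved some of these splits. Quantile normalisation shifted the median change of all genes by 0.27 from GV to MII, by -0.45 from the zygote to the 2-cell stage and by 0.20 from 2 to 4 cells. It then gave 9 rises and 12 falls from GV to MII, 12 rises and 0 falls at the 2-cell stage, and 12 rises and 15 falls from 2 to 4 cells. Over all genes, with both directions together, it called 5812, 4718 and 9508 at these steps, in place of 5045, 4959 and 9485. At the 2-cell stage the members thus lost a larger part of their calls than all genes did. Later splits were 4 rises and 2 falls from the 8-cell stage to the morula and 6 rises and 5 falls from the morula to the blastocyst. Over all genes it called 1547 and 3516 at these later steps, in place of 1740 and 3917. From MII to the zygote it gave 3 rises and 0 falls, with 1379 of all genes called in place of 1504. The 2-cell rises that were not called after it were those of Rab1b, Rab24, Rab25, Rab26, Rab30, Rab33b, Rab3b and Rab5b. edgeR on the recovered reads gave 8 rises and 15 falls from GV to MII, 5 and 3 from the 8-cell stage to the morula, and 8 and 5 from the morula to the blastocyst. Over all genes edgeR called 6831, 2290 and 4592 at these steps, in place of 5045, 1740 and 3917. The median of all genes moved by 0.11 with edgeR from GV to MII and by -0.16 from the morula to the blastocyst.

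Among the 13 genes of traffic at the endoplasmic reticulum (ER) and Golgi, 5 rose at the 2-cell stage (38.5%, against 25.2% of all genes tested), of which Rab1b, Rab30 and Rab33b were not called after quantile normalisation. Between GV oocytes and blastocysts 6 were higher (46.2%, against 38.2%) and 1 lower (7.69%, against 30.9%). Rab1a, which carries vesicles from the ER to the Golgi, lay at 44.4 ± 3.4 CPM in GV oocytes (n = 4), fell to 9.59 ± 1.9 in MII oocytes and reached 268 ± 49 in blastocysts (log2 change from GV 2.55 ± 0.17 SE, limma adjusted p = 9.4e-16). Its paralog Rab1b was at 36.0, 52.7, 44.5 and 47.9 CPM in GV oocytes and at 4.34, 3.57, 3.75 and 4.07 in MII oocytes. This fall of Rab1b, by 3.22 ± 0.26 (SE) on the log2 scale, was the second largest of the family at that step. Rab1b returned from 28.2, 26.2, 20.7 and 22.3 CPM in morulae to 66.2, 62.0, 67.2 and 77.4 in blastocysts, with no overlap. Rab2a, which acts at the ER-Golgi intermediate compartment, went from 136 ± 8.4 CPM in GV oocytes to 640 ± 124 in blastocysts. Its paralog Rab2b followed another course, with its peak at 30.9 ± 6.5 CPM in 4-cell embryos. Rab2b was at 22.7, 23.6, 16.8 and 27.1 CPM in 8-cell embryos, 4.71, 8.44, 9.90 and 7.57 in morulae and 2.06, 1.23, 1.83 and 2.75 in blastocysts. Both steps were falls (by 1.46 and 1.53 on the log2 scale), and the earlier rise from GV (1.12, 2.69, 2.04 and 0.748 CPM) to MII (4.38, 5.24, 3.71 and 4.44 CPM) was lost without replicate D. In GENCODE M21, 195 of its 4163 exon bases are shared with Tox4, which went from 5.31 ± 0.90 CPM in GV to 125 ± 27 in 4-cell embryos, and reads from overlapping exons cannot be told apart here.

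Rab6a, of traffic through and back from the Golgi, was highest in zygotes (110 ± 18 CPM) and Rab18, of the ER and lipid droplets, in 2-cell embryos (151 ± 15 CPM). Both fell from the 2-cell to the 4-cell stage, to 37.6 ± 4.6 and 28.9 ± 4.7 CPM. Of the 3728 exon bases of Rab6a, 708 are shared with Mrpl48, which went from 370 ± 63 to 92.7 ± 9.6 CPM at that step and whose part in the Rab6a values was not tested. Rab3a, Rab3b, Rab7, Rab10 and Rab26 share 29 to 317 exon bases with other genes of the table. Rab39, a Golgi and autophagy Rab, had 0 reads in all 4 zygote libraries and 24.6, 16.7, 26.7 and 25.8 CPM in 2-cell embryos. Against the floor of 3 reads per library this was at least 149-fold higher. Rab39 kept 22.3 ± 7.1 CPM in morulae (24.9, 31.1, 17.6 and 15.6) and fell to 2.87, 2.74, 1.58 and 4.51 CPM in blastocysts (log2 change -2.57 ± 0.22 SE, adjusted p = 1.1e-11). Its paralog Rab39b took another course: it fell from 1.83 ± 0.16 CPM in 2-cell embryos to 0 reads in all 4 libraries of 4-cell embryos, at least 10.9-fold lower. Rab33b, a Golgi Rab with a role in autophagy, rose from 5.46 ± 0.23 CPM in zygotes to 17.2 ± 3.8 in 2-cell embryos and was highest in 8-cell embryos at 33.5 ± 7.0. Rab30, also of the Golgi, rose at the 2-cell stage to 5.87 ± 1.8 CPM, and Rab6b rose from the morula (1.74 ± 1.5 CPM) to the blastocyst (4.44 ± 0.53), a call lost without replicate B or C, after quantile normalisation and with edgeR. Rab33a and Rab43 stayed at or under 1.48 CPM at every stage mean.

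Of the 7 early endosome genes, 5 rose at the 2-cell stage (71.4%, against 25.2% of all genes), of which Rab5b was not called after quantile normalisation. The same number were higher in blastocysts than in GV oocytes (71.4%, against 38.2%). The largest rise of the family was that of Rab20, known from phagosomes and endosomes. Rab20 was at 0.0986, 0, 0 and 0 CPM in zygotes and at 60.2, 49.0, 70.6 and 58.0 in 2-cell embryos (log2 change 5.87 ± 0.20 SE, adjusted p = 1.6e-23). It rose again to 274 ± 74 CPM in 4-cell embryos, then fell from 113 ± 31 in morulae to 61.4, 39.6, 41.6 and 44.7 CPM in blastocysts. Rab20 shares 356 of its 1392 exon bases with E230013L22Rik, whose highest stage mean was 4.03 ± 1.5 CPM, in 4-cell embryos. Rab5a, which drives the fusion of early endosomes, was at 6.39 ± 1.0 CPM in zygotes. In 2-cell embryos Rab5a stood at 51.2, 29.5, 40.5 and 44.2 CPM and in 4-cell embryos at 376, 441, 348 and 539 CPM (log2 change 3.34 ± 0.22 SE, adjusted p = 5.8e-16), with no overlap. It then fell from 303, 235, 328 and 254 CPM in morulae to 59.9, 114, 63.9 and 125 in blastocysts (by 1.68 on the log2 scale).

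Rab5c, a paralog with the same role, did not share the 4-cell peak: it was at 16.1 ± 0.89 CPM in GV oocytes, 3.72 ± 2.0 in MII oocytes, 14.4 ± 2.6 at the 4-cell stage and 43.1 ± 5.8 in blastocysts. Rab5b rose to 8.09 ± 2.9 CPM at the 2-cell stage and reached 12.6 ± 2.9 in blastocysts. Rab21, which moves integrins, rose and fell at most steps: 60.9 ± 3.4 CPM in GV oocytes, 12.8, 13.0, 6.75 and 10.5 in MII oocytes, 29.4, 20.5, 39.9 and 33.0 in zygotes, and 91.3 ± 28 in 2-cell embryos. It then fell to 8.06 ± 2.5 CPM in 4-cell embryos, lay at 4.54, 6.90, 5.04 and 2.37 in 8-cell embryos and rose to 23.6, 13.1, 18.4 and 24.9 in morulae (log2 change 1.90 ± 0.27 SE) and 56.1 ± 20 in blastocysts. Rab22a, of early and recycling endosomes, was at 39.5 ± 3.8 CPM in GV oocytes, 43.0 ± 2.6 at 2 cells and 13.7 ± 4.8 at 4 cells, the latter step a fall. Its fall from GV to MII (19.2 ± 5.2 CPM) was lost under 5 of the alternatives, among them leaving out replicate B, C or D. Rab31, its paralog, was at 3.98 ± 2.1 CPM in GV oocytes and 9.96 ± 3.0 in blastocysts.

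Of the 9 recycling genes 8 were tested, and 4 were higher (50%, against 38.2% of all genes: Rab17, Rab15, Rab11b and Rab35) and 2 lower (25%, against 30.9%: Rab25 and Rab4a) in blastocysts than in GV oocytes. Rab14, which links the Golgi and endosomes, was among the highest members by CPM up to the 2-cell stage. It rose from 267, 239, 223 and 242 CPM in GV oocytes to 602, 612, 595 and 626 in MII oocytes (log2 change 1.33 ± 0.11 SE, adjusted p = 3.3e-13) and fell from 651 ± 26 in 2-cell embryos to 108 ± 15 in 4-cell embryos. Rab11a, of the slow recycling endosome, was at 273 ± 6.4 CPM in GV oocytes, 311 ± 27 at 2 cells and 130 ± 29 at 4 cells. Its paralog Rab11b did the reverse, with 16.2 ± 4.1 CPM in 2-cell and 52.7 ± 8.7 in 4-cell embryos. Rab4a, of fast recycling, held 94.4 ± 7.9 CPM in GV oocytes, fell to 30.5, 21.7, 20.8 and 20.7 in MII oocytes and rose to 72.4, 87.3, 70.9 and 55.8 in zygotes. From the 2-cell stage (140, 76.8, 79.0 and 86.2 CPM) to the 4-cell stage (0.413, 4.53, 3.81 and 0.203 CPM) Rab4a had the largest fall of the family at that step (log2 change -5.17 ± 0.39 SE, adjusted p = 1.7e-14). It rose again from 0.553, 1.62, 6.94 and 2.37 CPM in 8-cell embryos through 7.90, 4.95, 5.47 and 15.1 in morulae, a step lost without replicate A (adjusted p = 0.073), to 22.7, 28.1, 24.1 and 38.8 in blastocysts.

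Rab17, a Rab of polarised epithelial traffic, was highest in blastocysts. It was at 2.04 ± 0.27 CPM in GV oocytes and under 1 CPM from MII to the 8-cell stage. Morulae had 0.911, 0.317, 3.14 and 1.36 CPM and blastocysts 41.6, 31.6, 38.0 and 27.5, the largest rise of that step (log2 change 3.98 ± 0.26 SE, adjusted p = 1.2e-14). The step from the 8-cell stage (0, 0.0677, 0 and 0 CPM) to the morula was also a rise (log2 change 1.13 ± 0.26 SE, limma adjusted p = 0.001). Without replicate C the log2 change was 0.83, under the threshold of 1, and the call was lost (limma adjusted p = 0.032). Rab25, an epithelial relative of Rab11, went the other way: 10.1, 3.71, 6.89 and 8.37 CPM in GV oocytes against 0.964, 0, 0.188 and 0 in MII oocytes (by -2.67 on the log2 scale). It rose to 3.95 ± 1.0 CPM in 2-cell embryos, fell at the next step and was at 0.597 ± 0.29 in blastocysts. Rab35, of fast recycling and cytokinesis, rose from 19.0 ± 3.2 CPM in GV oocytes to 48.6 ± 9.2 in blastocysts (log2 change 1.30). Rab15 was at 0 reads in GV oocytes and 2.96 ± 1.6 CPM in blastocysts, at least 13.7-fold higher.

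Of the 8 late endosome and lysosome genes, 4 were lower (50%, against 30.9% of all genes) and 2 higher (25%, against 38.2%) in blastocysts than in GV oocytes. Rab7, which drives the fusion of late endosomes with lysosomes, was at 472 ± 59 CPM in GV oocytes, 774 ± 66 at 2 cells, 132 ± 29 at 4 cells and 129 ± 28 in blastocysts. Rab32 and Rab38, which build lysosome-related organelles such as melanosomes, both fell from the 2-cell to the 4-cell stage, whereas from GV to MII Rab38 fell (by 1.91 ± 0.30 SE on the log2 scale) and Rab32 was not called (-0.59 ± 0.29 SE). Rab38 stood at 218, 258, 210 and 263 CPM in GV oocytes, at 114, 102, 82.8 and 98.8 in 2-cell embryos and at 0.103, 2.95, 3.11 and 2.38 in 4-cell embryos. Rab32 stood at 51.9, 55.5, 53.1 and 54.4 CPM in GV oocytes, at 52.0, 31.1, 40.9 and 51.6 in 2-cell embryos and at 2.53, 0, 0 and 1.01 in 4-cell embryos. The falls from 2 to 4 cells were 5.16 ± 0.30 (SE) for Rab38 and 4.75 ± 0.29 for Rab32 on the log2 scale. Rab38 had a small return from 1.16, 2.64, 3.49 and 0.462 CPM in 8-cell embryos to 8.61, 6.90, 5.67 and 3.35 in morulae, where the groups overlapped by 1 library on each side, and ended at 9.90, 8.06, 8.17 and 7.20 CPM in blastocysts. Rab32 ended at 0, 1.18, 1.67 and 0.549 CPM in blastocysts.

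Rab24, linked to autophagy, rose most between the end points. It was at 0.592, 0.727, 0 and 0.299 CPM in GV oocytes, 1.86, 1.61, 3.13 and 3.61 at 2 cells, 51.6, 67.5, 55.8 and 56.8 at 4 cells and 70.4, 73.0, 70.3 and 79.0 in blastocysts (log2 change from GV 5.75 ± 0.21 SE, adjusted p = 1.7e-23). In GENCODE M21, 1258 of the 2015 exon bases of Rab24 overlap Prelid1, which itself went from 22.1 ± 4.1 CPM in 2-cell to 176 ± 19 in 4-cell embryos. The strand setting of the count is not given in the sources used here, and the part of Prelid1 in the Rab24 values was not tested. Rab29, of the trans-Golgi and lysosome, fell to 0.310 ± 0.17 CPM in MII oocytes and rose from 3.62, 4.51, 2.95 and 4.56 CPM in GV oocytes to 61.7, 77.2, 51.2 and 46.2 in blastocysts (log2 change 3.60 ± 0.25 SE). Rab9, which returns receptors from late endosomes to the Golgi, was not called at any step and ranged from 33.5 ± 5.4 CPM in GV oocytes to 99.7 ± 5.9 in 8-cell embryos. Rab27a, of secretory lysosomes and granules, was at 13.1 ± 1.7 CPM in GV oocytes, 28.3 ± 6.0 at the 2-cell stage and 4.76 ± 0.91 in blastocysts, a log2 change of -1.30 from GV oocytes. Rab36 was highest in GV oocytes at 1.92 ± 0.95 CPM and was not called at any step.

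Among the 9 exocytosis genes, 4 fell from GV to MII (44.4%, against 25.3% of all genes) and 4 from 2 to 4 cells (44.4%, against 32.9%). Rab3 proteins hold secretory granules ready for regulated release. Rab3b stood at 182, 159, 170 and 163 CPM in GV oocytes and at 14.4, 15.1, 7.65 and 12.0 in MII oocytes, the largest fall of that step (by 3.71 ± 0.25 SE on the log2 scale, adjusted p = 1.7e-15). It rose to 29.4, 29.0, 35.1 and 27.9 CPM in zygotes and 67.8 ± 12 in 2-cell embryos, then fell by 4.24 on the log2 scale to 2.79 ± 1.5 in 4-cell embryos and lay at 3.90, 2.13, 3.29 and 2.44 in blastocysts. Rab3d was at 43.6 ± 3.5 CPM in GV oocytes, at 67.5, 41.1, 49.2 and 39.4 in MII oocytes and at 17.9, 31.5, 21 and 19.6 in zygotes. This fall of Rab3d, the one fall of the family at fertilisation, was lost without replicate A or C, with a pseudocount of 0.1 and after quantile normalisation (adjusted p = 0.014 to 0.078). Rab3a, the form best known from neurons, was at 21.4 ± 2.4 CPM in GV oocytes, 7.40 ± 2.3 in MII oocytes and 4.62 ± 1.2 in blastocysts.

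Rab8a and Rab8b, of traffic to the plasma membrane and the cilium, differed at the steps from GV to MII and from 2 to 4 cells, while from the zygote to the 2-cell stage their log2 changes were 0.97 ± 0.16 (SE) and 0.90 ± 0.26, with neither called. Rab8a fell from 88.4 ± 5.8 CPM in GV oocytes to 18.1 ± 1.8 in MII oocytes and stood at 164 ± 40 in blastocysts, a log2 change of 0.86 from GV oocytes that was not called. Rab8b was at 40.3 ± 4.9 CPM in GV oocytes, at 166, 189, 221 and 199 in 2-cell embryos and at 3.15, 12.5, 5.73 and 10.3 in 4-cell embryos (by -4.58 ± 0.26 SE on the log2 scale, adjusted p = 3.7e-18). Rab10, of constitutive and insulin-regulated exocytosis, was not called at any neighbouring step, with stage means from 53.7 ± 3.4 to 146 ± 30 CPM. Rab12 rose from 11.8, 12.7, 13.5 and 11.5 CPM in GV oocytes to 34.1, 26.7, 30.5 and 25.9 in MII oocytes. Rab13, of tight junction traffic, was at 5.80 ± 0.54 CPM in GV oocytes, 0.895 ± 0.31 in zygotes and 11.2 ± 3.1 in 2-cell embryos. Rab26, of secretory granules, had 0 reads in all libraries up to the zygote and 1.89 ± 0.93 CPM in 2-cell embryos, at least 12.0-fold higher.

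In the remaining group of 6, Rab34, which acts early in the building of cilia, rose at the 2-cell stage. It was at 0.444, 0.474, 0.467 and 0.5 CPM in zygotes and 31.6, 19.6, 21 and 23.2 in 2-cell embryos (log2 change 4.06 ± 0.23 SE, adjusted p = 5.4e-17). Rab40c, a substrate adaptor of a ubiquitin ligase, was also called as a rise at the 2-cell stage. It rose again at the next step from 4.04, 2.83, 3.05 and 3.09 CPM to 21.6, 28.1, 20.6 and 20.6 in 4-cell embryos. Rab23, which restrains Hedgehog signalling, had stage means between 9.94 ± 1.8 and 13.9 ± 5.2 CPM and was not called at any step. Rab28, also tied to cilia, was at 0.770 ± 0.28 CPM in GV oocytes and 9.12 ± 2.2 in blastocysts, a rise of 2.50 ± 0.32 (SE) on the log2 scale. Rab40b and Rab44 had stage means of at most 1.33 and 2.15 CPM.

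Close paralogs often took different courses. For 13 pairs with both members in the table, the log2 ratio of the first to the second was compared between GV oocytes and blastocysts by an exact permutation test, two-sided, with 4 libraries against 4. In 11 pairs the ratio differed at an exact p = 0.0286, the smallest this design allows (adjusted p = 0.0338 over the 13 pairs). The ratio moved towards the first member in 5 and towards the second in 6. Pairs of other genes were not compared, and 38.2% of all genes tested were higher and 30.9% lower in blastocysts than in GV oocytes. The difference of ratios was 3.93 for Rab8a over Rab8b, from 1.12 ± 0.25 (SD) in GV oocytes to 5.05 ± 0.37 in blastocysts. It was 2.38 for Rab3a over Rab3d, 2.16 for Rab5a over Rab5c, 2.01 for Rab2a over Rab2b and 1.96 for Rab1a over Rab1b, whose ratio of CPM was -0.02 ± 0.23 in GV oocytes (11.7 and 19.9 CPM per kb). The shift went to the second member for Rab40b and Rab40c (-3.76), Rab11a and Rab11b (-2.43), Rab33a and Rab33b (-2.09), Rab6a and Rab6b (-2.07), Rab4a and Rab4b (-2.06) and Rab22a and Rab31 (-1.54). Rab40b (0.25 and 0.0992 CPM per kb in GV oocytes and blastocysts), Rab33a (0.348 and 0.12) and Rab4b (0.101 and 0.274) were near the floor at both ends. With 1 CPM added, the shifts of these pairs mostly reflect the other paralog. Rab6b was near the floor in GV oocytes (0.00372 CPM per kb). For Rab33a and Rab33b the call was lost with a pseudocount of 0.1 (exact p = 0.057). Rab32 over Rab38 had a ratio of -2.12 ± 0.13 in GV oocytes and -2.42 ± 0.73 in blastocysts (p = 0.571, exact permutation test), and Rab5b and Rab5c differed by 0.69 (p = 0.0571, exact permutation test). A p that misses the threshold does not show that these 2 pairs move alike, and in zygotes Rab32 and Rab38 were at 54.8 ± 6.9 and 52.6 ± 5.4 CPM. Reads shared between near-identical stretches of paralogs could be split or dropped by the authors' counting, so the smaller values of each pair are uncertain.

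**Figure D2:**
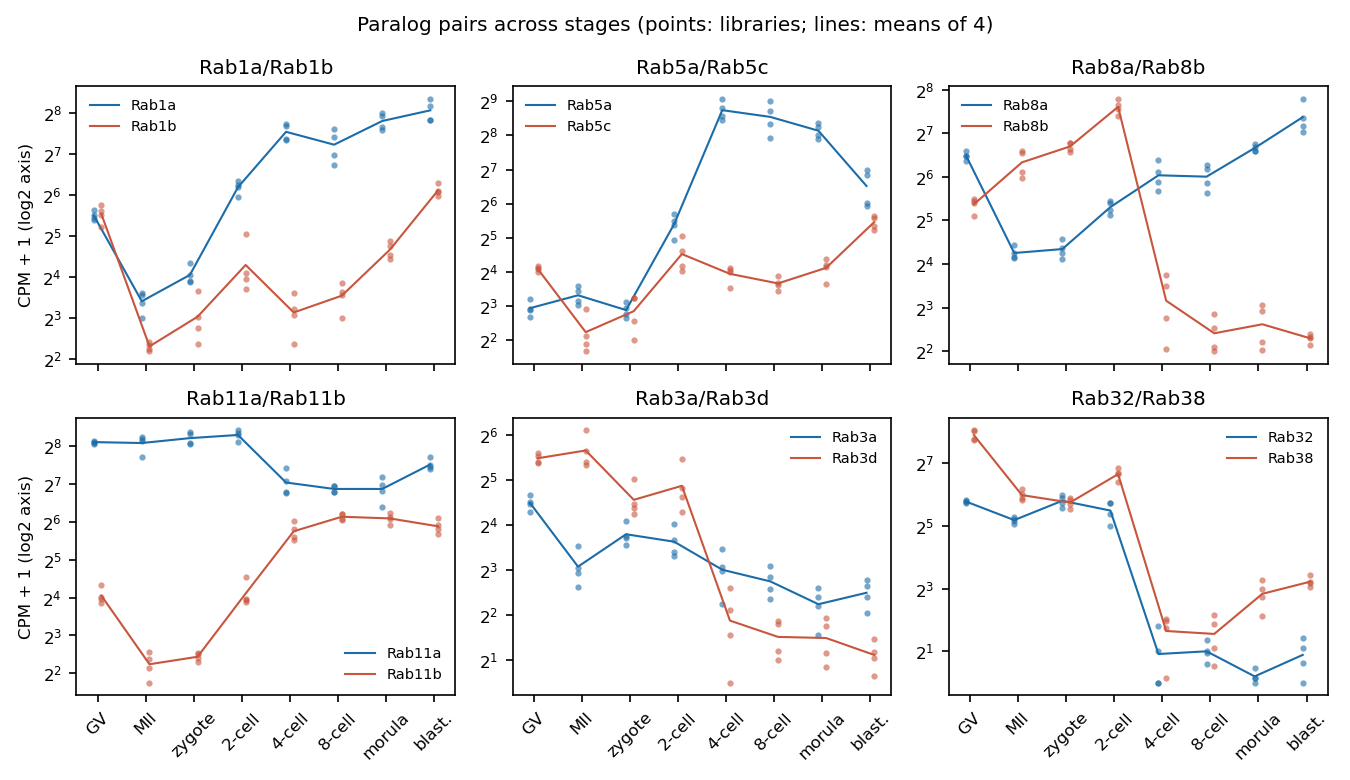
CPM + 1 on a log2 axis at 8 stages for 6 paralog pairs, with points for single transcriptome libraries and lines for means of 4. Rab8a and Rab8b cross between GV and MII oocytes and again between the 2-cell and 4-cell stages. Rab11a drops and Rab11b rises from the 2-cell to the 4-cell stage, and Rab32 and Rab38 both drop at that step.

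The genes that act on Rab proteins were counted from lists of GEFs (50 genes in the table), GAPs (37), effectors (46) and the prenylation and GDI genes (9). At the 2-cell stage, where 25.2% of all genes rose and 8.71% fell, 12 GEFs rose (24%) and 1 fell, 7 GAPs rose (18.9%) and 4 fell (10.8%), 15 effectors rose (32.6%) and 0 fell, and 1 prenylation and GDI gene rose. The shares of GEFs and GAPs that rose were under that of all genes. Rilpl2, an effector of ciliary Rabs, went from 0.141 ± 0.18 CPM in zygotes to 26.5 ± 5.3 in 2-cell embryos. Rabgef1, a GEF of Rab5, went from 3.71 ± 1.3 to 24.2 ± 7.9 CPM, and Gdi2, the widely expressed GDI, from 165 ± 19 to 437 ± 30 CPM. From 2 to 4 cells, 23 of the 46 effectors fell (50%, against 32.9% of all genes) and 7 rose (15.2%, against 31.8%), with a list median of -1.02 against 0.02 for all genes. The 3 largest of these falls were in partners of secretory Rabs. Rims1, a Rab3 effector of the active zone, went from 405 ± 50 to 2.12 ± 1.4 CPM, Sytl4, a Rab27 effector, from 192 ± 12 to 0.615 ± 0.65 CPM, and Rph3al from 91.9 ± 23 to 1.30 ± 0.92 CPM. At that step 15 GEFs rose and 15 fell (30.0% each), and 9 GAPs rose (24.3%) and 13 fell (35.1%). From the morula to the blastocyst, where 18.8% of all genes rose and 7.97% fell, 11 effectors rose (23.9%) and 0 fell, 15 GEFs rose (30.0%) and 2 fell (4.0%), and 10 GAPs rose (27.0%) and 2 fell (5.41%). Rin3, a GEF of Rab5, went from 0.0626 ± 0.075 to 16.6 ± 4.7 CPM, and Myo5b, a motor of Rab11 vesicles, from 6.82 ± 1.5 to 34.7 ± 8.2 CPM. From GV to MII, 4 effectors rose (8.7%, against 9.11% of all genes) and 8 fell (17.4%, against 25.3%). From MII to the zygote 1 rose and 1 fell (2.17% each, against 5.79% and 4.48%). From 4 to 8 cells 0 rose (0.451% of all genes) and 1 fell (2.17%, against 2.14%). From the 8-cell stage to the morula 4 rose (8.7%, against 8.18%) and 5 fell (10.9%, against 3.7%).

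In a sucrose gradient, free mRNPs and small ribosomal particles stay in the light fractions and mRNAs with several ribosomes reach the heavy fractions. For each gradient the mean CPM of fractions 6 to 10 (heavy) was compared with that of fractions 1 to 5 (light) in one limma fit over 15172 genes, with all 52 members tested. Since the CPM of a fraction is relative to that fraction alone, these values compare the make-up of the fractions and not the amount of RNA in them. Member values were often 0 in single fractions: 25.1% of values in GV oocytes, 50.9% at 2 cells, 51.0% at 4 cells and 17.4% in blastocysts. In GV and MII oocytes no member was called by limma. In GV oocytes 0.0461% of all genes were called heavy and 0.0264% light, and in MII oocytes 1.71% and 1.52%. At an unadjusted p under 0.05 there were 3 members in GV and 4 in MII oocytes, and edgeR called 0 at both stages. Fraction 1 of GV oocytes held 0.0105, 0.0237 and 8.09 M reads in gradients A, B and C. There 1 read was worth 95.5, 42.2 and 0.124 CPM, and its part in the lack of calls was not tested. In zygotes 2 members were heavy and 0 light (2.14% and 0.87% of all genes), and in 2-cell embryos 6 were heavy (11.5%, against 6.43%) and 1 light (11.8% of all genes). In 4-cell embryos 0 were heavy (3.4% of all genes) and 7 light (13.5%, against 12.9%). In 8-cell embryos 2 were heavy (2.43%) and 3 light (6.62%), in morulae 0 were heavy (1.64%) and 2 light (4.17%), and in blastocysts 0 were heavy (0.633%) and 1 light (2.11%). None of these 24 calls was kept under all alternatives tried, and each call below is given with the gradients without which it was lost.

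In zygotes the heavy members were Rab6a and Rab14. Rab6a stood at 43.4, 89.9 and 97.4 CPM in the heavy and 14.9, 7.53 and 17.0 in the light fractions of gradients A, B and C (log2 difference 2.45 ± 0.56 SE, adjusted p = 0.0078). Rab14 stood at 285, 275 and 532 CPM in the heavy and 70.7, 52.4 and 77.5 in the light fractions (2.38 ± 0.69 SE, adjusted p = 0.049). The sides did not overlap for either gene, but both calls were lost without gradient B or C and with edgeR, which called 0 members in zygotes. Quantile normalisation gave 2 heavy and 2 light members. With the gradient as a block, Rab8b was also heavy (2.85 ± 0.64 SE, adjusted p = 0.013), at 28.4, 29.9 and 90.2 against 8.82, 2.86 and 4.87 CPM.

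In 2-cell embryos, Rab18 stood at 128, 69.4 and 82.9 CPM in the heavy and 0.756, 8.00 and 13.1 in the light fractions (3.91 ± 0.94 SE, adjusted p = 0.0026). Rab6a stood at 70.2, 49.4 and 46.2 against 14.1, 18.7 and 3.20 CPM (2.36 ± 0.56 SE, adjusted p = 0.0023). Rab1a stood at 52.0, 0.0576 and 99.2 against 0.0485, 0.0501 and 1.07 CPM, so that gradient B did not show the difference. Rab7 (1.72), Rab20 (1.75) and Rab11a (2.09) were also heavy, with Rab7 at 633, 639 and 648 CPM against 193, 182 and 206. Rab39b was light at 4.90, 0 and 0 CPM in the heavy against 4.75, 1.19 and 10.7 in the light fractions. Calls were lost without gradient C for Rab6a, Rab1a, Rab7, Rab20, Rab11a and Rab39b, without B for Rab7, Rab20 and Rab39b, and without A for Rab18 and Rab1a. With the gradient as a block, 10 members were called, with Rab8b added as heavy and Rab22a and Rab40b as light. In this stage quantile normalisation gave 7 heavy and 0 light, and edgeR 4 heavy and 3 light members. The edgeR read sums left out fraction 7 of gradient B.

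In 4-cell embryos the light members were Rab6a, Rab38, Rab14, Rab33b, Rab35, Rab5c and Rab4b. Rab6a stood at 34.4, 8.46 and 18.9 CPM in the light and 0, 0.0342 and 0.0269 in the heavy fractions (-4.20 ± 0.56 SE, adjusted p = 1.2e-06). This call was kept under all alternatives tried except a limma fit of 4-cell embryos alone (adjusted p = 0.21). In that fit 0 members and 0 of all genes were called. Rab38 stood at 43.5, 31.0 and 1.38 against 0, 0.0342 and 0.0490 CPM (-3.87 ± 0.76 SE) and Rab14 at 140, 86.9 and 68.2 against 67.9, 0.867 and 2.40 CPM (-3.65 ± 0.69 SE), both lost without gradient B. The sides overlapped for neither Rab6a, Rab38 nor Rab14. The log2 differences of Rab35, Rab5c and Rab4b were -2.76, -2.25 and -1.78, each lost without gradient A, and those of Rab35 and Rab5c also without B and that of Rab5c without C. All of these were lost after quantile normalisation and with edgeR as well, and that of Rab4b also when fraction 1 was left out of the light side. In 4-cell fractions the oocyte markers had a median sum of 591 CPM, against 44.6 to 54.1 CPM in the transcriptomes of that stage, and their part in these values was not tested. After quantile normalisation 0 members were heavy and 4 light, and with edgeR 3 and 6.

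Rab33b was the member with light at the most stages, with calls at 4 successive stages. Its heavy and light means were 100, 34.9 and 13.3 against 460, 307 and 254 CPM in 4-cell embryos and 16.4, 17.7 and 18.3 against 379, 406 and 362 in 8-cell embryos (log2 difference -4.38 ± 0.95 SE, adjusted p = 0.0014). In morulae the values were 14.5, 9.5 and 1.73 against 500, 124 and 131 CPM (-4.73 ± 0.95 SE, adjusted p = 0.00066), and in blastocysts 3.27, 1.56 and 3.66 against 74.3, 47.4 and 26.4 (-3.65 ± 0.95 SE, adjusted p = 0.021). The sides did not overlap at any of the 4 stages. Most of the light signal lay in fraction 1, with 1827, 1234 and 1022 CPM at 4 cells, 1646, 1616 and 1510 at 8 cells, 1904, 541 and 572 in morulae and 291, 194 and 116 in blastocysts. Fraction 2 held means of 240, 225, 145 and 24.9 CPM and fraction 5 means of 29.8, 20.8, 22.0 and 7.31 CPM at the same 4 stages. The fraction 1 libraries held 0.178 to 0.425 M reads in 4-cell, 0.215 to 0.470 in 8-cell embryos, 0.465 to 0.920 in morulae and 2.57 to 4.73 in blastocysts. The calls of Rab33b were lost at all 4 stages when fraction 1 was left out of the light side (adjusted p = 0.17 to 0.84) and with edgeR on summed reads, in which the shallow fraction 1 weighs little. In 4-cell embryos they were also lost without each of the 3 gradients in turn (adjusted p = 0.053, 0.10 and 0.087 without A, B and C), and in blastocysts without A or B. In 2-cell embryos fraction 1 held 572, 281 and 96.1 CPM, but fraction 10 of gradient B held 761 CPM, and Rab33b was not called.

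**Figure D3:**
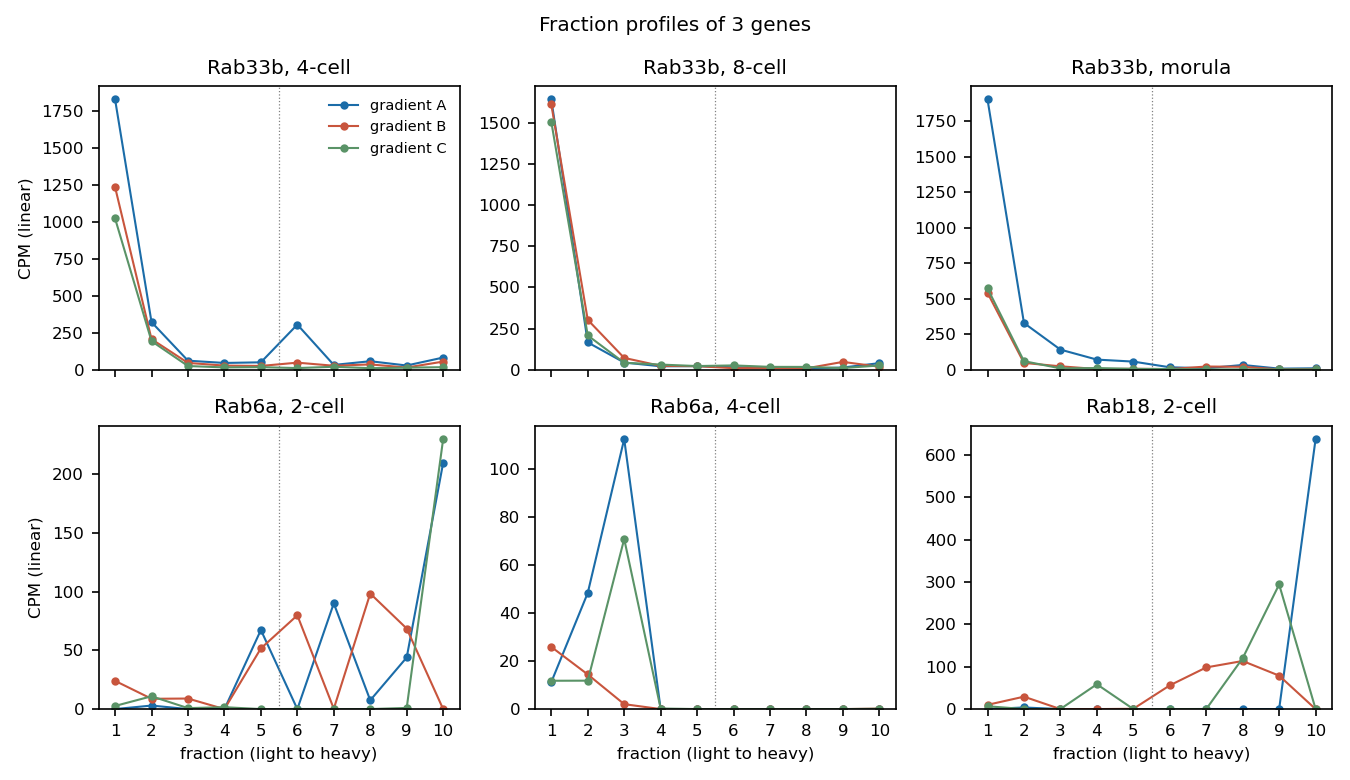
CPM (linear axis) in fractions 1 to 10 of gradients A, B and C, for Rab33b in 4-cell embryos, 8-cell embryos and morulae, Rab6a in 2-cell and 4-cell embryos and Rab18 in 2-cell embryos. The dotted line divides light from heavy. Rab33b peaks in fraction 1 in all 9 gradients shown, while Rab6a is heavy at the 2-cell and light at the 4-cell stage.

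In 8-cell embryos, Rab4a and Rab4b were light beside Rab33b, and Rab9 and Rab24 heavy. Rab9 stood at 19.1, 37.6 and 42.1 CPM in the heavy and 1.13, 5.48 and 0.228 in the light fractions (3.65 ± 0.88 SE, adjusted p = 0.0041), and the call was lost without gradient B or C. Rab24 stood at 100, 98.7 and 102 against 59.1, 12.4 and 35.0 CPM (1.72 ± 0.57 SE, adjusted p = 0.049). It was lost without gradient B or C, and with the gradient as a block its adjusted p was 0.054. In that fit Rab43 was light as well (-1.45). Rab4a stood at 15.8, 0.0179 and 0.618 CPM in the heavy and 13.6, 9.43 and 31.5 in the light fractions, where the sides overlapped and the call was lost without gradient B or C. Rab4b stood at 0.967, 0.144 and 0.502 against 8.09, 5.52 and 3.24 CPM (-2.07 ± 0.38 SE), a difference lost when fraction 1 was left out. In morulae Rab15 was light, at 0, 0.207 and 0 against 12.3, 0.268 and 4.57 CPM, lost without gradient A or C. Quantile normalisation gave 1 heavy and 1 light member in 8-cell embryos and edgeR 0 heavy and 1 light.

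A fit of each stage alone changed the calls in both directions. It called 1 member in GV oocytes (Rab8b, heavy by 2.55), 5 in MII oocytes, 9 in zygotes, 8 in morulae and 6 in blastocysts, but 1 in 2-cell, 0 in 4-cell and 1 in 8-cell embryos. Over all genes, the fits alone called 285 in GV oocytes, 2204 in MII oocytes, 2092 in zygotes, 1610 in morulae and 2416 in blastocysts. In 2-cell, 4-cell and 8-cell embryos they called 188, 0 and 252 genes. The shared fit called 11, 490, 456, 2758, 2468, 1373, 882 and 416 genes at the 8 stages in order. In MII oocytes the members called alone were Rab8b and Rab6a as heavy and Rab5c, Rab3b and Rab3a as light. Rab5c, at 2.10, 3.31 and 7.66 CPM in the heavy and 20.3, 15.5 and 18.4 in the light fractions of MII oocytes, was light by the same test in zygotes (15.8, 24.9 and 18.3 against 79.8, 61.4 and 89.6). In morulae Rab5a, Rab1b, Rab17, Rab2a, Rab1a, Rab7 and Rab20 were heavy in that fit (log2 differences 1.20 to 2.10). In blastocysts Rab1b, Rab3d, Rab20 and Rab40c were heavy (1.17 to 1.69) and Rab28 light beside Rab33b.

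**Figure D4:**
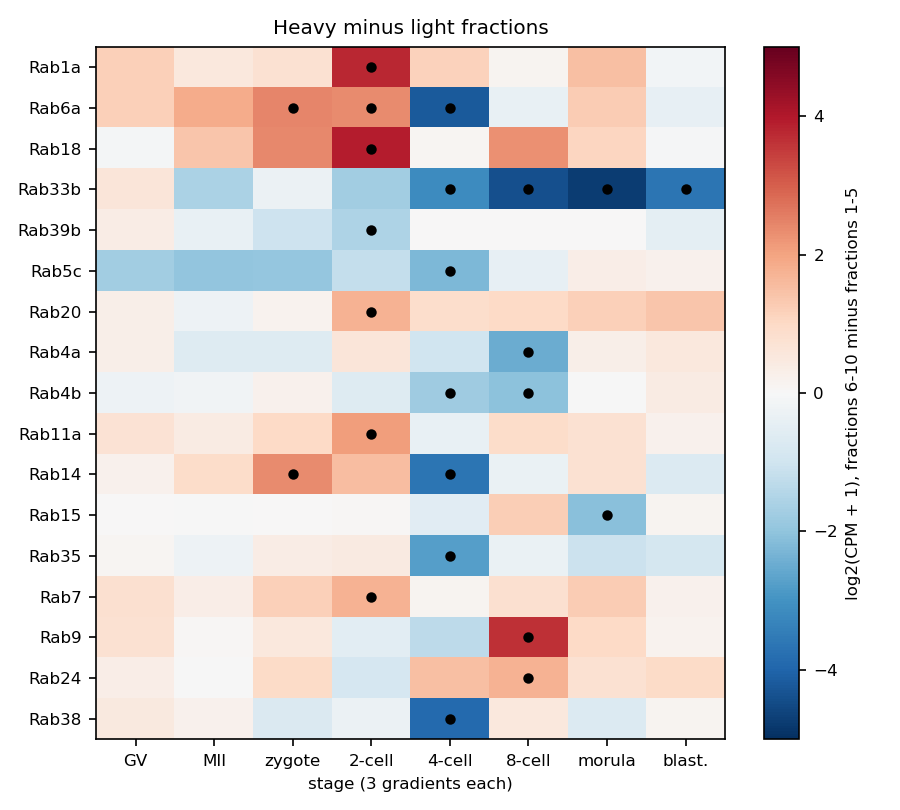
Log2 difference of the heavy (6 to 10) and light (1 to 5) fraction means for the 17 Rab genes called at 1 or more stages (rows) at 8 stages (columns), red for heavy and blue for light, with dots on calls. Rab33b is blue from the 4-cell stage to the blastocyst, and Rab6a changes from 2.36 in 2-cell to -4.20 in 4-cell embryos.

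The change of the heavy fractions was then set against the change of the transcriptome between neighbouring stages, as an interaction in a limma fit of 24 heavy means and 32 transcriptomes over 15165 genes. This asks whether the heavy fraction level of a gene changed by more or less than its level in the whole cell. Neighbouring interactions use the libraries of the shared stage with opposite sign and are not independent of each other. From GV to MII, 3 members gained in the heavy fractions beyond the transcriptome (6.94% of all genes) and 0 lost (1.27%). From MII to the zygote limma called no member (0.93% and 1.35% of all genes), with 4 at an unadjusted p under 0.05. At the 2-cell stage 0 gained (1.58%) and 10 lost (19.6%, against 26.0%), with a median of -0.89 over all genes. From 2 to 4 cells 5 gained (9.8%, against 13.8%) and 10 lost (19.6%, against 18%), and from 4 to 8 cells 13 gained (25.5%, against 12.0%) and 0 lost (1.77%). From the 8-cell stage to the morula 1 gained (3.97%) and 1 lost (2.48%), and from the morula to the blastocyst 0 gained (0.468%) and 1 lost (1.73%). Quantile normalisation shifted the median of all genes by 0.93 at the 2-cell stage and by -0.43 from 4 to 8 cells. With it there were 0 gains and 5 losses at the 2-cell stage, 8 and 4 from 2 to 4 cells, 5 and 1 from 4 to 8 cells, 2 and 1 from the 8-cell stage to the morula, and 1 and 1 from the morula to the blastocyst. Over all genes it called 2780, 4961, 1832, 1025 and 394 at these steps, in place of 4177, 4823, 2085, 978 and 333. Of the 44 calls, 13 were kept under all alternatives tried, among which edgeR was not run.

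From GV to MII the largest gain was that of Rab3b. While its transcriptome level fell from 168 ± 10 to 12.3 ± 3.4 CPM, its heavy fractions went from 147, 120 and 145 to 508, 224 and 288 CPM (interaction 4.93 ± 0.91 SE, adjusted p = 0.0001). Its light fractions rose as well, from 174 ± 46 to 944 ± 155 CPM, and in MII oocytes the light level was above the heavy level. Rab11b went from 13.7, 16.1 and 27.2 to 22.0, 32 and 44.2 CPM in the heavy fractions while its transcriptome values went from 13.5, 19.0, 14.6 and 15.1 to 4.16, 4.96, 3.42 and 2.38 (2.59 ± 0.74 SE), a call lost without replicate B or D. Rab13 was near 1 CPM in the heavy fractions at both stages (0.640, 0.291 and 0.640, then 3.53, 0.305 and 0.481), and its call was lost without replicate A or C.

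At the 2-cell stage, some transcripts that rose in the transcriptome were scarce in the heavy fractions. Rab39 went from 0 reads to 23.5 ± 4.6 CPM in the transcriptome, but its heavy fractions held 0.0469, 0.232 and 1.70 CPM in 2-cell embryos (-4.04 ± 0.96 SE, adjusted p = 0.0013). Rab13 had 13.9, 7.51, 13.8 and 9.79 CPM in 2-cell transcriptomes and 0, 0 and 0.0589 in the heavy fractions (-3.74 ± 0.64 SE, adjusted p = 1.6e-05). Rab25 went from 11.1, 9.77 and 20.6 to 21.3, 0 and 0 CPM in the heavy fractions while its transcriptome rose (-4.06 ± 0.76 SE). Rab29, Rab31, Rab17, Rab24, Rab23, Rab5a and Rab8a also lost (log2 values -3.54 to -1.13), the last 2 with calls lost under 9 or more alternatives. The interaction sets heavy fractions against the transcriptome and not against the light fractions. In the shared fit of heavy against light fractions, none of these members was called light in 2-cell embryos. In that stage Zscan4c and Zscan4d showed a like gap, with 1400 to 1980 CPM in the transcriptomes and a median of 102 CPM over the fractions, and whether this bears on the Rab values was not tested.

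From 2 to 4 cells, Rab40c and Rab34 gained most. Rab40c stood at 0, 25.7 and 0 CPM in the heavy fractions of 2-cell and 544, 655 and 271 of 4-cell embryos, against transcriptome means of 3.25 ± 0.54 and 22.7 ± 3.6 (4.79 ± 0.81 SE, adjusted p = 9.9e-06). Rab34 stood at 8.43, 15.5 and 4.25, then 230, 77.3 and 139 CPM in the heavy fractions, while its transcriptome held 23.9 ± 5.4 and 21.4 ± 5.4 (4.02 ± 0.60 SE, adjusted p = 8.7e-07). Rab39 gained by 2.62 at 19.5, 0.928 and 97.7 CPM in 4-cell embryos, a call lost without replicate A, C or D. Rab20 and Rab24 gained by 1.95 and 2.16. Rab6a lost most, from 70.2, 49.4 and 46.2 CPM to 0, 0.0342 and 0.0269 (-4.50 ± 0.41 SE, adjusted p = 8.7e-12), while 37.6 ± 4.6 CPM remained in the transcriptome. Rab14 went from 272, 367 and 498 to 67.9, 0.867 and 2.40 CPM (-3.01 ± 0.72 SE, lost without replicate C) and Rab3d from 236, 468 and 222 to 0.436, 48.3 and 0.108 CPM (-2.97 ± 0.98 SE, lost without replicate A or C). Rab1a, Rab38, Rab2b, Rab9, Rab11a, Rab11b and Rab21 lost by between 2.75 and 1.71 on the log2 scale. In a fit of the 2 stages alone 6 members were called in place of 15, and 2123 of all genes in place of 4823.

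From 4 to 8 cells the direction turned for several of these genes. Both steps use the same 4-cell libraries with opposite sign, so a low 4-cell heavy value gives a loss and then a gain. Of the member values in 4-cell fractions, 51.0% were 0. Rab6a returned to 6.82, 11.3 and 5.82 CPM in the heavy fractions (3.5 ± 0.41 SE, adjusted p = 2.8e-08) and Rab9 went from 0, 0.0391 and 0 to 19.1, 37.6 and 42.1 CPM (4.56 ± 0.77 SE, adjusted p = 3e-05), while its transcriptome held 74.2 ± 10 and 99.7 ± 5.9 CPM. Rab5b went from 0.0911, 0.109 and 14.2 to 17.3, 32.8 and 19.9 CPM (3.35 ± 0.95 SE), a call lost without replicate A, B or D. Rab1a, Rab3d, Rab2a, Rab22a, Rab13, Rab38, Rab21, Rab31, Rab15 and Rab40b gained by 1.48 to 3.33. Rab6a and Rab9 were the calls kept in a fit of these 2 stages alone, and without replicate D 5 members were called. Over all genes these fits called 380 and 1137, in place of 2085.

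Rab17 carried the largest gain from the 8-cell stage to the morula. Its heavy fractions went from 0.0663, 0 and 0.0969 to 174, 99.2 and 75.5 CPM (interaction 5.58 ± 0.50 SE, adjusted p = 4.7e-11), whereas the morula transcriptomes held 1.43 ± 1.2 CPM. The light fractions of morulae also held more than the transcriptomes, with 40.7, 27.5 and 30.7 CPM. In blastocysts the heavy fractions were at 196, 107 and 155 CPM and the transcriptomes at 34.7 ± 6.4. The interaction turned to -3.55 ± 0.50 (SE, limma adjusted p = 5.1e-06). Both interactions of Rab17 use the same morula libraries with opposite sign, so the turn is not an independent result. In the morula the 7 blastocyst markers moved the same way, with 315 to 413 CPM in the transcriptomes and a median of 816 and a highest value of 3970 CPM over the fractions, and their part in the Rab17 difference was not tested. Rab15 lost from the 8-cell stage to the morula, from 14.2, 0.866 and 0 to 0, 0.207 and 0 CPM (-1.94 ± 0.58 SE, lost without replicate A or D).

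**Figure D5:**
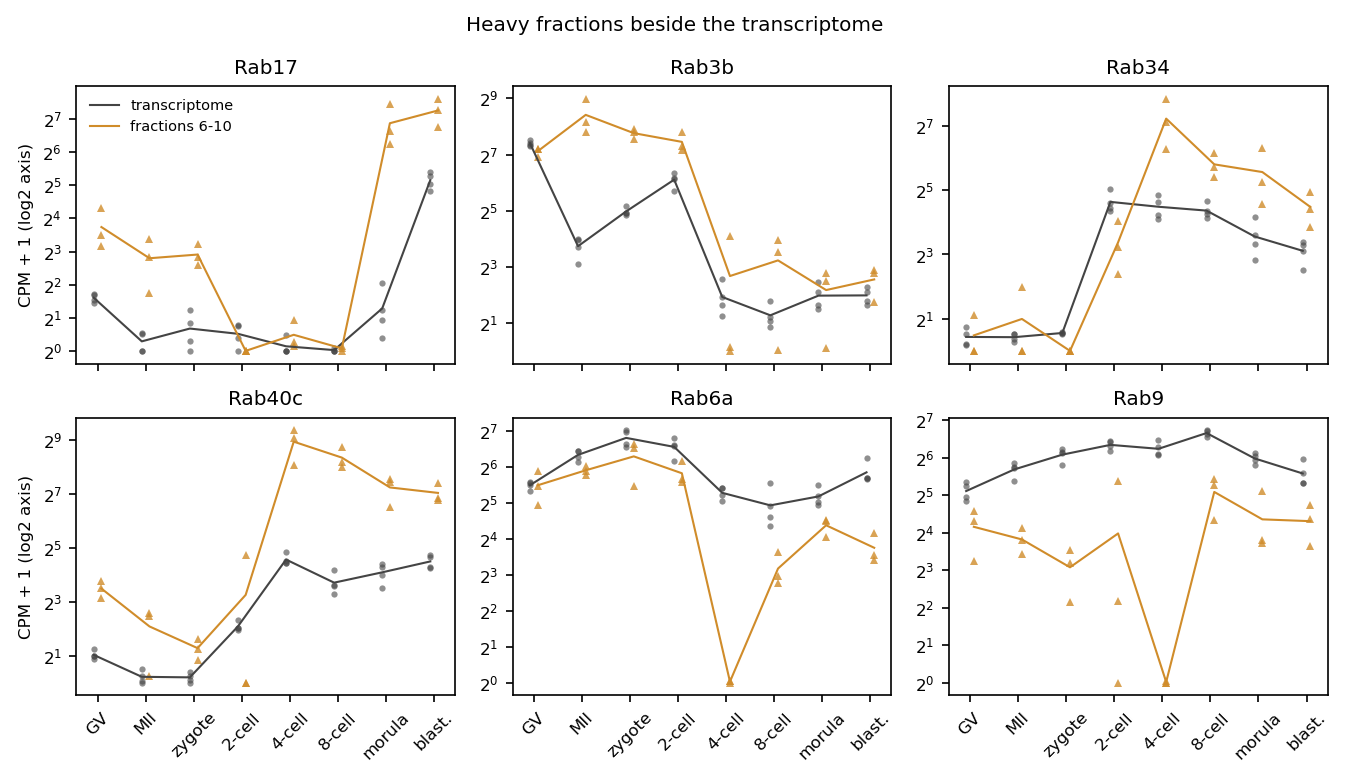
CPM + 1 on a log2 axis at 8 stages for Rab17, Rab3b, Rab34, Rab40c, Rab6a and Rab9, with grey points for the 4 transcriptome libraries, orange triangles for the heavy fraction means of 3 gradients, and lines for their means. In morulae Rab17 is at 75.5 to 174 CPM in the heavy fractions and at 0.317 to 3.14 CPM in the transcriptomes, Rab3b drops in the transcriptome of MII oocytes but not in the heavy fractions, and Rab6a and Rab9 are near 0 in the heavy fractions of 4-cell embryos.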

How the data were processed

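Poly(A) RNA of 32 transcriptome pools and 240 gradient fractions was measured with the Smart-seq2 v4 and Nextera XT kits, per the labels' protocols. The submitters' processing notes name Trim Galore 0.6.7, FastQC, HISAT2 2.2.1, featureCounts 2.0.1, edgeR and GRCm39, with no order or settings. The authors deposited 1 table of CPM (gene counts per 1000000). In 9 columns that the authors deposited, here recorded as a signal, the sum over all rows passed 1020000 because symbols with identical values repeat. They were used as CPM once 1 symbol per group was kept. Columns then summed to 0.791 to 0.989 M (M for 1000000), and reads were recovered from the steps of the values. Of the values above 0 that were checked, 100% were whole within 0.05 reads, and the highest values were not checked. Of 15854 symbols, 159 in 76 groups had identical rows and 1 row per group was kept, which leaves 15771. No member was in such a group.

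Tests used limma 3.58.1 (R 4.3.3, trend) on log2(CPM + 1), without a replicate block, for genes at 1 CPM or more in at least 4 transcriptomes or 3 gradient means. A call needed a Benjamini-Hochberg adjusted p under 0.05 over all genes and an absolute log2 change of at least 1. Fold changes on this scale understate the change of low genes. edgeR 4.0.16 ran on the recovered reads as an alternative, for the transcriptome and for heavy against light fractions but not for the interaction. Its read sums left out fraction 7 of gradient B of 2-cell embryos, whose step of 1 read lay close to a rounding step. Other alternatives were a pseudocount of 0.1, no filter, quantile normalization, other divisions of the fractions, fits of the compared groups alone and leaving out each replicate. The scripts were tested on simulated data. In each comparison the up to 3 called members with the largest rise and fall are given with every sample, and a fixed list of well-known Rabs and all paralog pairs with levels. The members and lists were chosen with earlier results of these data known. Transcriptome letters did not pair samples across stages (median r 0.016, from -0.178 to 0.195). Heavy and light means of a gradient come from the same lysate (median r 0.0973), so blocked values are given where they change a call.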

Additional observations from a re-analysis of the deposited data

Results flagged for a closer look

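Of 325 groups of 4 transcriptome libraries with a mean of at least 1 CPM, 9 (2.77%) had a single library far above the other 3; the gap to the nearest library, over the range of the 4, was beyond Dixon's 95% critical value. Chance gives about 1 in 20 over both sides, and no group had a single library that far below the other 3. In 2-cell embryos these were Rab2a at 307 CPM (others 271 to 275), Rab4a at 140 (76.8 to 86.2) and Rab11b at 22.3 (13.6 to 14.6). In zygotes they were Rab7 at 431 CPM (305 to 322) and Rab27a at 16.3 (13.2 to 13.7). The others were Rab4a in MII oocytes at 30.5 CPM (20.7 to 21.7), Rab40c in 4-cell embryos at 28.1 (20.6 to 21.6), Rab6b in morulae at 3.95 (0.832 to 1.27) and Rab6a in blastocysts at 74.5 (49.2 to 50.7).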

How the results depend on the processing

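Of single-member calls, 93 of 122 in the transcriptome and 0 of 24 between heavy and light fractions were kept under all alternatives tried. In the heavy fractions beyond the transcriptome 13 of 44 were kept, but edgeR was not among the alternatives there. The shares kept therefore rest on different alternatives. The one change of sign was Rab4b in 4-cell embryos, at 0.44 with edgeR (adjusted p = 0.9). For causes not named here, the cause was not tested. In the transcriptome, quantile normalization gave 12 calls from the zygote to the 2-cell stage in place of 20 (4718 in place of 4959 over all genes). Between heavy and light fractions, it gave 1 call in MII oocytes, 4 in zygotes, 4 in 4-cell and 2 in 8-cell embryos and 1 in morulae. Fits of each stage alone gave 1 call in GV oocytes, 5 in MII oocytes, 9 in zygotes, 1 in 2-cell, 0 in 4-cell and 1 in 8-cell embryos, 8 in morulae and 6 in blastocysts. edgeR gave 0 in zygotes, 1 in 8-cell embryos, 0 in morulae and 0 in blastocysts. Without a filter there was 1 call in MII oocytes and 2 in blastocysts, and with a pseudocount of 0.1 there was 1 in zygotes. Fractions 7 to 10 against 1 to 4 gave 1 in MII oocytes, 5 in morulae and 2 in blastocysts, and fractions 6 to 10 against 2 to 5 gave 2 in 8-cell embryos, 1 in morulae and 0 in blastocysts. Beyond the transcriptome, quantile normalization gave 5 calls from GV to MII, 5 from the zygote to the 2-cell stage, 6 from 4 to 8 cells and 2 from the morula to the blastocyst. Fits of the compared stages alone gave 10 from GV to MII, 3 from MII to the zygote, 6 from 2 to 4 cells, 2 from 4 to 8 cells, 1 from the 8-cell stage to the morula and 5 from the morula to the blastocyst, where heavy fractions 7 to 10 gave 2.

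Leaving out each replicate in turn gave 17 to 19, 3 to 4, 19 to 22, 23 to 26, 0 to 1, 5 to 9, 12 to 16 and 32 to 35 calls in the 8 transcriptome comparisons, in the order of the report. Between heavy and light fractions it gave 0 in GV and MII oocytes, 0 to 2 in zygotes (0 without gradient B or C), 4 to 6 in 2-cell, 4 to 7 in 4-cell (4 without A) and 2 to 7 in 8-cell embryos (2 without B or C), 1 to 2 in morulae (1 without C) and 0 to 1 in blastocysts (0 without A or B). Beyond the transcriptome it gave 2 to 4, 0, 7 to 12, 11 to 17, 5 to 13 (5 without D), 1 to 4 (4 without A, 1 without D) and 1 to 3 calls (3 without A). With the replicate block, the heavy and light comparison gave 3 calls in zygotes, 10 in 2-cell and 5 in 8-cell embryos, and counts equal to the unblocked ones at the other 5 stages. In the transcriptome, the block on the letter, which did not pair the samples, left the counts at 18, 4, 0, 7, 15 and 34 in the 6 comparisons without 2-cell libraries, whose letters did not match those of the labels. Beyond the transcriptome the block gave 12 calls from 4 to 8 cells in place of 13. In fraction 1 the depth limits what can be seen.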
